A study of Mus musculus with 36 samples.

Results

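Potassium channel genes are described here in mouse hippocampus, as 92 genes of the 37991 in a table of RNA sequencing read counts. They were chosen by name alone: every Ensembl gene whose symbol starts with Kcn and a subfamily letter, leaving out antisense and opposite-strand transcripts. Of the 92, 76 encode channel-forming subunits and 16 auxiliary subunits, and 73 held enough reads to be tested among 14457 genes. The 76 include the silent Kv subunits, which form channels only together with other subunits. The animals were female, adult (3 months in the labels) and of 2 kinds: double-transgenic CK-p25 mice, in which p25 is switched on, a shortened form of p35 that activates the kinase Cdk5, and control littermates, labelled CK. The labels name neither the promoter that drives p25 nor what transgene, if any, the CK littermates carry. Hippocampus was taken at 2 or at 6 weeks after p25 induction, with 3 libraries in each of the 4 groups (CK and CKp25 at each time). The question put to these data was which of these genes had more or less RNA in CKp25 than in CK hippocampus, and whether that changed from 2 to 6 weeks. The labels do not say that the 3 libraries of a group are different animals, so the spread between libraries behind each p-value may be technical only. One age, that above, is given for both times, and time since induction, age at collection and batch cannot be told apart.

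Potassium channels let potassium leave a cell, or in some classes enter it, and so set the resting potential, the shape of the action potential and the rate of firing. Voltage-gated (Kv) channels open on depolarisation, calcium- and sodium-activated channels follow ion entry, and inward rectifiers and two-pore channels hold the membrane near rest. In hippocampus, pyramidal and granule neurons use many of them at once in axons and dendrites, and glia use others to take up potassium released by firing neurons.

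Levels below are counts scaled to a common total (CPM) within a library, with a correction for composition. Since longer genes collect more reads and gene lengths were not used, a level is compared only with the same gene in other libraries. Values of 3 libraries are given in the order CK_2wk_4520, CK_2wk_4891, CK_2wk_4893, then CKp25_2wk_4518, CKp25_2wk_4890, CKp25_2wk_4894, then CK_6wk_3936, CK_6wk_3938, CK_6wk_4009, then CKp25_6wk_3937, CKp25_6wk_3940, CKp25_6wk_4008. Fold changes are log2 of CKp25 over CK with their standard error (SE). A gene is said to rise or fall, or is called, where its adjusted p is below 0.05 in edgeR's quasi-likelihood test, with Benjamini-Hochberg adjustment over all 14457 genes. Libraries held 5029996 to 6450140 gene counts, and 63 of the 73 tested members reached 1.88 CPM, the filter's minimum, in all 12 libraries. CK_2wk_4520 and CKp25_2wk_4518 stand apart from the other 2-week libraries in reads that aligned to several places (7.15 and 6.81% against 12.2 to 14.3%). At 6 weeks that share was 6.86 to 9.52% in CK and 11.5 to 13.9% in CKp25, with no overlap. The library numbers fall into 4 runs that each hold both CK and CKp25: CK_2wk_4520 with CKp25_2wk_4518, the other 4 libraries of 2 weeks, CK_6wk_4009 with CKp25_6wk_4008, and the other 4 of 6 weeks. The labels do not say what these numbers stand for. Fewer cells of a type and less RNA per cell cannot be told apart in bulk tissue.

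The stretches just upstream of 4 of these genes are shown. The 4 were taken from the called members with a single promoter entry. Among those, Kcne1l and Kcnj2 rose most at 6 weeks, and Kcnk4 and Kcnip2 fell most. Each stretch is the 250 bases before the annotated start of transcription, 5′ to 3′ on the gene's own strand. They come from RefSeq, build GRCm38.p6, with CG dinucleotides in capitals. The stretches lie at chrX:142306199-142306448 (minus strand), chr11:111065914-111066163 (plus), chr19:6934516-6934765 (minus) and chr19:45816064-45816313 (minus), outside the transcribed part of each gene.
Kcne1l: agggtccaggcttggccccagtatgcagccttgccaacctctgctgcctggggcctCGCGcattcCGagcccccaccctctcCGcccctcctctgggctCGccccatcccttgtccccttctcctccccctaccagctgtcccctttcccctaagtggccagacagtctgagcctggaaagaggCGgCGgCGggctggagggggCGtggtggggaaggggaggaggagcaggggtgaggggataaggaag
Kcnj2: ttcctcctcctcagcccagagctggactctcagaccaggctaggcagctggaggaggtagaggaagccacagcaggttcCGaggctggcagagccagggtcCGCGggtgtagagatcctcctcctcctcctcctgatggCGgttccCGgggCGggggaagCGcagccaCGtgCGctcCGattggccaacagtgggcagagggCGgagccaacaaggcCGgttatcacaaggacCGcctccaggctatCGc
Kcnk4: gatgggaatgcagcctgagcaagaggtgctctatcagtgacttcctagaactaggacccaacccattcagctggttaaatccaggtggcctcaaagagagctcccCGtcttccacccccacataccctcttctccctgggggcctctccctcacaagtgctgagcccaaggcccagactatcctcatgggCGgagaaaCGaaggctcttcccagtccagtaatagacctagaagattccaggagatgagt
Kcnip2: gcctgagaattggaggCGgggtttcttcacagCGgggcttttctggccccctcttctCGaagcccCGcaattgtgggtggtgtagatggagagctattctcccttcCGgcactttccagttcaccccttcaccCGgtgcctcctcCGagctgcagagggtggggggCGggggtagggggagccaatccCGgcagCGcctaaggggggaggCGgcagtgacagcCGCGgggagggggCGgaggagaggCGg

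The stretches of Kcnj2 and Kcnip2 hold 14 and 15 CG dinucleotides, that of Kcne1l 9 and that of Kcnk4 3. Promoter entries were found for 68 of the 92 members (93 entries). Their median was 7 CG dinucleotides per 250 bases, against 6 over all 32851 entries. It was 8 for the members that fell at 6 weeks (33 entries) and 11.5 for those that rose (8 entries of 5 genes). Short motifs were searched on both strands. TTCAGCACC, one arm of the site of REST, a repressor of neuronal genes, was in 1 of 93 member entries (1.08%) and 0.301% of all. That entry is not of a member that fell or rose at 6 weeks. The core of an interferon response element (GAAA, any 2 bases, GAAA) was in 6 member entries (6.45% against 2.98%). It was in 4 of the 33 entries of members that fell at 6 weeks (12.1%) and 0 of the 8 of those that rose. TATAAA was in 3 member entries (3.23% against 12.4%), and GAGGAA, the core bound by PU.1, in 23 (24.7% against 23.3%). A match is a description of the letters only. Of the pair with the most CG dinucleotides, Kcnj2 rose and Kcnip2 fell.

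At 2 weeks 27 potassium channel genes fell and 3 rose of the 73 tested, and at 6 weeks 31 fell and 6 rose. Over all genes tested, 7.99% fell and 11.6% rose at 2 weeks (19.6% called), and 15.2% fell and 18.1% rose at 6 weeks (33.3% called). Among the members 37.0% fell at 2 weeks and 42.5% at 6 weeks, so the share that fell stood above the background and the share that rose, 4.11 and 8.22%, below it. The median log2 fold change of the members was -0.22 at 2 weeks and -0.33 at 6 weeks, against -0.01 and 0.00 over all genes. The channel-forming members alone gave -0.26 and -0.34.

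Most losses were shared by both times. There were 23 members that fell at both times, where 5.95% of all genes did, and Kcne1l, Kcnj2 and Kcnk6 rose at both, where 8.79% of all genes did. Genes called lower at 6 weeks alone included Kcnc2, Kcnd3, Kcng3, Kcnk9, Kcnmb4, Kcnn1 and Kcnq3, and those at 2 weeks alone were Kcna1, Kcnc4, Kcnf1 and Kcnk1. Kcnj10, Kcnk13 and Kcnk2 were called higher at 6 weeks alone. The other 32 tested members were called at neither time.

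All 3 CKp25 libraries lay below all 3 CK libraries for 35 of 73 members at 2 weeks (17.8% of all genes) and for 33 at 6 weeks (21.6%). They lay above for 5 members at 2 weeks (18.4%) and for 9 at 6 weeks (23.6%). Summed over the 92 genes, the CK libraries held 4233 to 4409 CPM at 2 weeks and 4234 to 4555 at 6 weeks, and the CKp25 libraries 3408 to 3812 and 3177 to 3582. The sums of the groups did not overlap at either time.

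Single libraries weighed on the 2-week count, CKp25_2wk_4894 the most: without it 15 members fell, 14 of them among the 27. That is 20.5% of the members, and under the same setting 3.26% of all genes fell, against 7.99% with all libraries. Without CK_2wk_4891, CK_2wk_4893 or CKp25_2wk_4890, 19, 18 and 19 members fell (4.38, 4.21 and 5.54% of all genes). Without CK_2wk_4520 or CKp25_2wk_4518, 26 and 24 fell (6.9 and 8.04%). By DESeq2 20 fell (6.61%). Without both libraries that stand apart at 2 weeks, 25 members fell (6.85% of all genes) and 3 rose (10.6%). With the share of reads aligned to several places as a covariate, 28 members fell (11.9% of all genes) and 4 rose (15.6%) at 6 weeks. This covariate ended the 6-week calls of Kcnip4 (-0.27), Kcna2 (-0.23), Kcnb2 (-0.43), Kcnc2 (-0.25), Kcnk13 (0.85) and Kcnk2 (0.25), with adjusted p = 0.153, 0.101, 0.11, 0.0906, 0.107 and 0.305. By DESeq2, the 2-week falls of Kcnma1, Kcnt2, Kcnh1, Kcnj6, Kcnq5, Kcnf1 and Kcnk1 did not pass (adjusted p from 0.0525 to 0.141), nor did the 6-week changes of Kcnn1, Kcnb2 and Kcnk2 (0.0584, 0.0606 and 0.0814). The 6 libraries of 6 weeks fitted alone gave adjusted p = 0.0588 for Kcnc2.

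**Figure D1:**
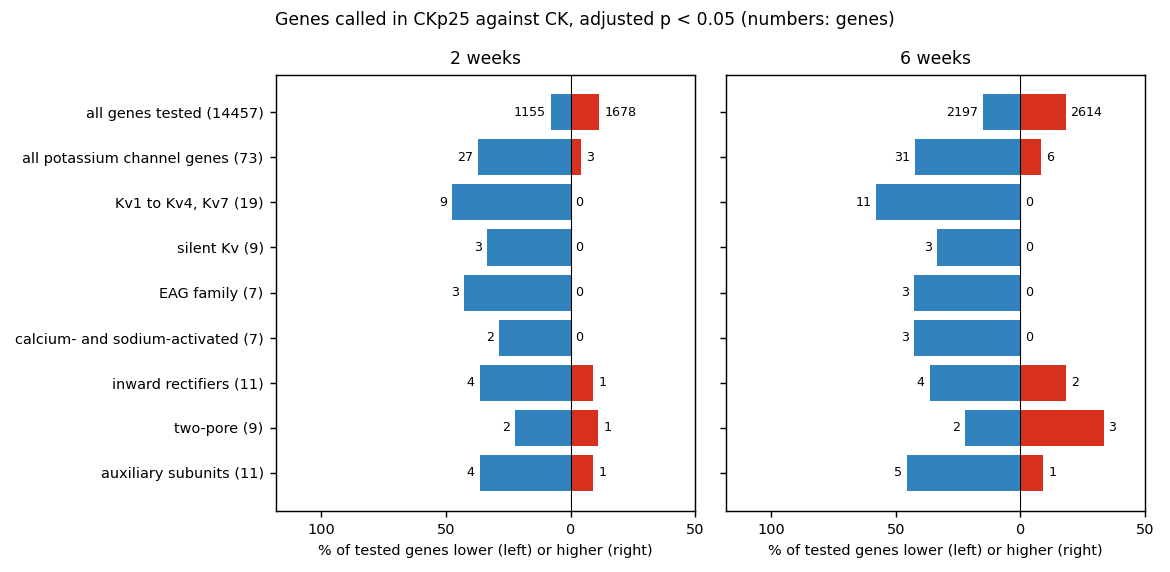
Share of tested genes called lower (bars to the left) or higher (bars to the right) in CKp25 against CK at 2 weeks (left) and 6 weeks (right), in percent, for all genes, all potassium channel genes and their classes (Kv1 to Kv4 and Kv7 joined), with the number of genes called beside each bar. At 6 weeks 31 of 73 members fell and 6 rose, and the classes with a gene that rose are the inward rectifiers, two-pore channels and auxiliary subunits.

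Kv1 channels (Kcna) sit in axons and nerve terminals and restrain firing. Of 6 tested genes 3 fell at 2 weeks, Kcna1, Kcna2 and Kcna4, and 2 at 6 weeks, Kcna2 and Kcna4. Kcna4, an inactivating Kv1 subunit, stood at 72.8, 79.2 and 73.4 CPM in CK and 62.1, 59.3 and 52.1 CPM in CKp25 at 2 weeks. Its 6-week values were 63.9, 71.4 and 72.1 CPM in CK and 37.6, 46.9 and 41.5 CPM in CKp25. The groups did not overlap at either time, and the fold change was -0.37 ± 0.09 at 2 weeks (adjusted p = 0.00747) and -0.72 ± 0.10 at 6 weeks (adjusted p = 2.51e-05). Kcna2, a main subunit of axonal Kv1 channels, read 84.3, 99.8 and 85.6 CPM in CK and 73, 68.6 and 61.8 CPM in CKp25 at 2 weeks. At 6 weeks it read 89.9, 94.3 and 90.3 CPM and 75.8, 77.5 and 76.9 CPM. The groups did not overlap at either time, and it changed by -0.40 ± 0.08 and -0.25 ± 0.08 (adjusted p = 0.0018 and 0.0232). Kcna1, which joins Kcna2 in axons, held 269, 254 and 283 CPM in CK and 237, 229 and 194 CPM in CKp25 at 2 weeks. The 6-week libraries held 282, 309 and 281 CPM and 249, 256 and 259.7 CPM. All CKp25 libraries lay below CK at both times, and the fold changes were -0.29 ± 0.08 and -0.19 ± 0.08 (adjusted p = 0.0172 and 0.0803). The 2-week calls of Kcna1 and Kcna4 were lost without CKp25_2wk_4894 (adjusted p = 0.124 and 0.0592), that of Kcna1 also without CK_2wk_4893 (adjusted p = 0.0818). The 6-week call of Kcna2 was lost without CK_6wk_3938, CKp25_6wk_3937 or CKp25_6wk_4008 (adjusted p = 0.0723, 0.0615 and 0.0555). Kcna6, Kcna3 and Kcna5 had positive fold changes at both times and were called at neither, with 0.18 ± 0.07, 0.33 ± 0.21 and 0.83 ± 0.39 at 6 weeks. Kcna6 was the closest of them to a call (adjusted p = 0.063) and passed without CKp25_6wk_4008 (0.24, adjusted p = 0.031) and with upper-quartile scaling (0.21, adjusted p = 0.0317). Without CKp25_2wk_4518 or CKp25_2wk_4894, Kcna1 was called lower at 6 weeks as well (-0.20 each, adjusted p = 0.0461 and 0.0385).

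Kv2 channels (Kcnb) carry the delayed rectifier current of the soma and proximal dendrites. Kcnb2 was at 24, 26.8 and 27 CPM in CK and 18.4, 19.8 and 13.7 CPM in CKp25 at 2 weeks. At 6 weeks the values were 26, 27.3 and 19.7 CPM in CK, where CK_6wk_4009 was lowest, and 19, 19.2 and 15.6 CPM in CKp25. The gap between the groups was thus small at 6 weeks, though they did not overlap. Kcnb2 changed by -0.58 ± 0.15 and -0.43 ± 0.15 (adjusted p = 0.0105 and 0.0363). Its 2-week call was lost without CKp25_2wk_4894 (adjusted p = 0.074). Its 6-week call was lost without CK_6wk_3936, CK_6wk_3938, CKp25_6wk_3937 or CKp25_6wk_4008 (adjusted p = 0.113, 0.146, 0.0585 and 0.141).

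Kv3 channels (Kcnc) repolarise fast-spiking neurons and nerve terminals. Kcnc4 fell at 2 weeks (-0.51 ± 0.11, adjusted p = 0.00353) and was at -0.14 ± 0.11 at 6 weeks (adjusted p = 0.361). Fast-spiking interneurons express Kcnc1 and Kcnc2 strongly. Kcnc1 was called at neither time (-0.17 ± 0.09 and -0.16 ± 0.09). Kcnc2 stood at 122, 128 and 134 CPM in CK and 122, 107 and 115 CPM in CKp25 at 2 weeks. Its 6-week values were 131, 144 and 120.1 CPM and 101, 123 and 110.2 CPM. The groups overlapped at both times, and Kcnc2 was at -0.15 ± 0.09 at 2 weeks and fell at 6 weeks (-0.24 ± 0.09, adjusted p = 0.04). The Kcnc2 call was lost without CK_2wk_4891 or any of CK_6wk_3936, CK_6wk_3938, CKp25_6wk_3937 and CKp25_6wk_4008 (adjusted p = 0.0504, 0.0799, 0.18, 0.168 and 0.0983).

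Kv4 channels (Kcnd) carry the A-type current of dendrites, and the KChIP proteins (Kcnip) bind them inside the cell. Kcnd2, the main dendritic subunit of pyramidal neurons, was at 167, 184 and 182 CPM in CK and 154, 140.0 and 132 CPM in CKp25 at 2 weeks. The levels at 6 weeks were 157, 177 and 158 CPM and 99, 124 and 119 CPM. It fell without overlap at both times (-0.32 ± 0.09 and -0.53 ± 0.09, adjusted p = 0.0148 and 0.000219). The 2-week call was lost without CK_2wk_4891, CK_2wk_4893 or CKp25_2wk_4894 (adjusted p = 0.0616, 0.0563 and 0.0944). Kcnd3 was -0.12 ± 0.09 at 2 weeks and -0.41 ± 0.09 at 6 weeks, where it was called (adjusted p = 0.00267). Kcnd1 was called at neither time. Kcnip2, a KChIP of forebrain and heart, went from 111, 118 and 115 CPM in CK to 85.6, 77.7 and 84.3 CPM in CKp25 at 2 weeks. At 6 weeks its values were 116, 138 and 98.5 CPM in CK and 48.8, 70.5 and 60.7 CPM in CKp25. The lowest CK library thus stood above the highest CKp25 library at each time. The fold change was -0.47 ± 0.12 at 2 weeks and -0.96 ± 0.12 at 6 weeks (adjusted p = 0.00854 and 1.54e-05). Kcnip4 changed by -0.51 ± 0.11 and -0.40 ± 0.11 (adjusted p = 0.00326 and 0.0111), a 6-week call lost without CK_6wk_3938 or CKp25_6wk_3937 (adjusted p = 0.0636 and 0.0608). Kcnip3 and Kcnip1 were called at neither time, with 0.15 ± 0.08 and -0.09 ± 0.21 at 6 weeks.

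The silent Kv subunits (Kcnf, Kcng, Kcns, Kcnv) form no channel alone and change the gating of Kv2 channels when they join them. Of 9 tested, 3 fell at 2 weeks (Kcns2, Kcnv1, Kcnf1) and 3 at 6 weeks (Kcng3, Kcns2, Kcnv1). Kcns2 was at 34, 35 and 29.9 CPM in CK and 24, 23.7 and 20.6 CPM in CKp25 at 2 weeks. Values at 6 weeks were 31.9, 39.5 and 30.6 CPM in CK and 17.4, 22.2 and 22 CPM in CKp25. There was no overlap, and the changes were -0.53 ± 0.13 and -0.72 ± 0.13 (adjusted p = 0.00588 and 0.000382). Kcnv1, which also joins Kv2 channels, held 38.1, 45 and 41.7 CPM in CK and 30.6, 28 and 26.6 CPM in CKp25 at 2 weeks. It held 40.7, 34.2 and 46.4 CPM and 22, 25.1 and 30.4 CPM at 6 weeks. Again no CKp25 library reached the CK range (-0.54 ± 0.13 and -0.65 ± 0.13, adjusted p = 0.00573 and 0.00102). Kcng3 stood at 15.1, 13.9 and 12.8 CPM in CK and 15.4, 12.1 and 9.48 CPM in CKp25 at 2 weeks, where CKp25_2wk_4518 was the highest of all 6. Its 6-week values were 17.3, 14.4 and 15.9 CPM in CK and 11, 7.73 and 7.64 CPM in CKp25. The groups thus overlapped at 2 weeks and not at 6, with -0.17 ± 0.18 and -0.86 ± 0.19 (adjusted p = 0.568 and 0.00204). Kcnf1 fell at 2 weeks alone (-0.35 ± 0.12, adjusted p = 0.0471). That call was lost without CK_2wk_4891, CK_2wk_4893 or any single CKp25 library of that time, and without CK_6wk_3936 or CKp25_6wk_4008 (adjusted p = 0.173, 0.102, 0.0626, 0.0746, 0.193, 0.0596 and 0.0574). Without CKp25_6wk_3940 Kcnf1 was called at 6 weeks too (-0.44, adjusted p = 0.00659). Kcng1, Kcng2, Kcng4, Kcns1 and Kcns3 were called at neither time, with log2 fold changes at 6 weeks from -0.52 for Kcng2 to 0.41 for Kcng4.

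**Figure D2:**
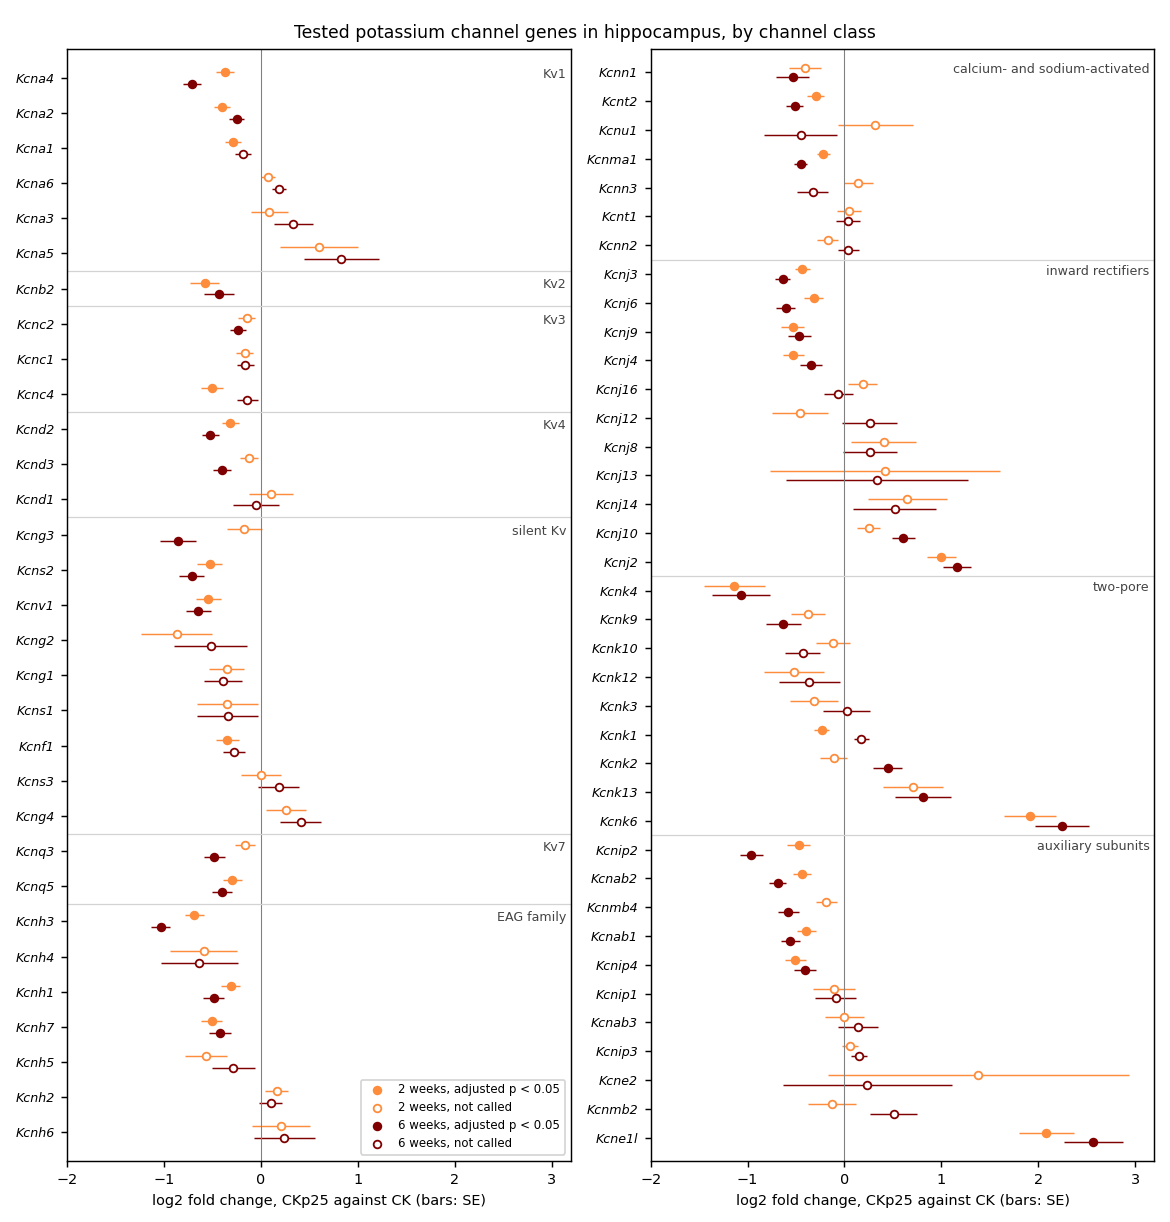
Log2 fold change of CKp25 against CK (horizontal axis, bars of 1 SE) for tested potassium channel genes, sorted by class, at 2 weeks (orange) and 6 weeks (dark red); filled points passed adjusted p 0.05 and open points did not. Points of the Kv, Kv7 and EAG classes lie mostly left of 0, and the points farthest right are Kcne1l (2.57 at 6 weeks) and Kcnk6 (2.25).

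Kv7 channels (Kcnq) carry the M current, which muscarinic receptors turn down and which limits repetitive firing. Kcnq3, a subunit of the neuronal M channel, read 73.9, 70.4 and 80.3 CPM in CK and 71.4, 66.2 and 62.1 CPM in CKp25 at 2 weeks, with overlap. Values at 6 weeks were 67.5, 83.4 and 62.3 CPM and 49.6, 56 and 46.4 CPM, without overlap. The fold changes were -0.17 ± 0.10 and -0.48 ± 0.11 (adjusted p = 0.293 and 0.00219). Kcnq5, another M-channel subunit, had 89, 89.4 and 94.1 CPM in CK and 74, 73.1 and 74.2 CPM in CKp25 at 2 weeks. By 6 weeks the values were 82.6, 83.2 and 85.6 CPM and 50.6, 75 and 63.3 CPM. It fell without overlap at both times (-0.30 ± 0.10 and -0.41 ± 0.10, adjusted p = 0.0419 and 0.00523). Leaving out any 1 of the 6 libraries of that time, CK_6wk_3936 or CKp25_6wk_4008 ended its 2-week call (adjusted p from 0.0537 to 0.123).

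The EAG family (Kcnh) holds slowly gating Kv channels. Kcnh3, an ELK-type channel of forebrain neurons (ENSMUSG00000037579), measured 89.2, 98.4 and 96.3 CPM in CK and 62.1, 62.5 and 51.5 CPM in CKp25 at 2 weeks. It measured 88.1, 89.8 and 88.9 CPM in CK and 36.2, 49.1 and 44 CPM in CKp25 at 6 weeks. Every CKp25 library stood far below every CK library, and levels estimated from the fitted fold changes were lower by 37.9% at 2 weeks and 51.3% at 6 weeks. The fold change was -0.69 ± 0.10 (adjusted p = 5.72e-05) and -1.04 ± 0.10 (adjusted p = 8.7e-07), and the call held under all 22 alternatives at each time. The annotated span of Mcrs1 overlaps that of Kcnh3. Kcnh7, one of the family's ERG-type channels, had 163, 176 and 181 CPM in CK and 132, 121 and 112 CPM in CKp25 at 2 weeks. Its 6-week values were 146, 152 and 185 CPM and 103, 142 and 113 CPM. It fell at both times without overlap (-0.51 ± 0.11 and -0.42 ± 0.11, adjusted p = 0.00307 and 0.00696). Kcnh1 changed by -0.32 ± 0.10 and -0.49 ± 0.11 (adjusted p = 0.0393 and 0.00171). Its 2-week call was lost without CK_2wk_4891, CK_2wk_4893, CKp25_2wk_4890 or CKp25_2wk_4894 (adjusted p = 0.196, 0.0599, 0.125 and 0.138). Kcnh2, Kcnh4, Kcnh5 and Kcnh6 were called at neither time. Kcnh5 (-0.56 ± 0.22 at 2 weeks, adjusted p = 0.0812) was called at 2 weeks without CK_2wk_4520 (-0.78, adjusted p = 0.014) or CK_6wk_4009 (-0.57, adjusted p = 0.0469).

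Among calcium- and sodium-activated channels, Kcnma1, the BK channel that ends action potentials and limits release, was at 142, 145 and 137 CPM in CK and 127, 118 and 119 CPM in CKp25 at 2 weeks. The 6-week values were 149.5, 139.6 and 138 CPM and 101, 110.5 and 100.4 CPM. It fell without overlap at both times, with -0.22 ± 0.07 and -0.45 ± 0.07 (adjusted p = 0.0301 and 7.83e-05). The 2-week call was lost without CK_2wk_4520, CK_2wk_4891, CKp25_2wk_4890 or CKp25_2wk_4894 (adjusted p = 0.0694, 0.107, 0.0932 and 0.13). Kcnmb4, the neuronal BK auxiliary subunit, was -0.19 ± 0.10 at 2 weeks (adjusted p = 0.244) and -0.58 ± 0.11 at 6 weeks (adjusted p = 0.000591). Its levels were 25.9 ± 2.45 CPM in CK and 17.2 ± 0.198 CPM in CKp25 at 6 weeks (SD, n = 3 libraries). Its span overlaps 2 opposite-strand transcripts, Kcnmb4os1 and Kcnmb4os2. Kcnt2, a sodium-activated channel, measured 60.9, 66.1 and 60.2 CPM in CK and 54.1, 48 and 49.8 CPM in CKp25 at 2 weeks. It measured 66.7, 59.5 and 73 CPM and 46, 47.7 and 45.8 CPM at 6 weeks. It fell without overlap at both times (-0.30 ± 0.09 and -0.52 ± 0.09, adjusted p = 0.0217 and 0.000238), the first call lost without CK_2wk_4891, CKp25_2wk_4890 or CKp25_2wk_4894 (adjusted p = 0.0945, 0.0798 and 0.0968). Its paralog Kcnt1 did not pass the test at either time (0.04 ± 0.12 and 0.03 ± 0.12). Of the SK channels, which follow intracellular calcium without voltage, Kcnn1 fell at 6 weeks (-0.53 ± 0.17, adjusted p = 0.022). This call was lost without CK_6wk_3936 or CKp25_6wk_3937 (adjusted p = 0.0794 and 0.0752), and at 2 weeks Kcnn1 was called without CKp25_2wk_4894 (-0.59, adjusted p = 0.0328). Kcnn2, Kcnn3 and Kcnu1 were called at neither time, though Kcnn2 was called at 2 weeks without CK_2wk_4520 (-0.31, adjusted p = 0.0421).

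The inward rectifiers (Kcnj) moved in both directions. Kcnj3, Kcnj6 and Kcnj9 encode the G-protein-gated channel of neurons, which opens under GABA-B and other inhibitory receptors, and all 3 fell at both times. Kcnj3 was at 144, 141 and 156 CPM in CK and 114, 106 and 105 CPM in CKp25 at 2 weeks. The levels at 6 weeks were 143, 143 and 145 CPM and 82.2, 103 and 91.8 CPM. CK libraries at 6 weeks differed little and every CKp25 library lay below them, with -0.44 ± 0.08 and -0.64 ± 0.08 (adjusted p = 0.000646 and 1.28e-05). Kcnj6 read 55.2, 50.3 and 53.6 CPM in CK and 43.3, 42.1 and 42.3 CPM in CKp25 at 2 weeks. It read 52.9, 64.1 and 48.4 CPM and 34, 38.8 and 35.3 CPM at 6 weeks. The CKp25 libraries were below CK throughout (-0.32 ± 0.10 and -0.61 ± 0.10, adjusted p = 0.0314 and 0.000208). The 2-week call was lost without CK_2wk_4520, CK_2wk_4893, CKp25_2wk_4890 or CKp25_2wk_4894 (adjusted p = 0.093, 0.0839, 0.0785 and 0.0979), and without both libraries that stand apart (0.116).

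Kcnj9, the third of these subunits, held 61.5, 70.6 and 59.5 CPM in CK and 45.2, 50.1 and 37.1 CPM in CKp25 at 2 weeks. Values at 6 weeks were 67.7, 57.9 and 63.2 CPM and 38.6, 46.4 and 51.3 CPM. There was no overlap at either time, with -0.54 ± 0.12 and -0.47 ± 0.12 (adjusted p = 0.00356 and 0.00566). Kcnj4, a strong inward rectifier of forebrain neurons, stood at 57.7, 69.6 and 61 CPM in CK and 43.3, 46.9 and 40.4 CPM in CKp25 at 2 weeks. By 6 weeks the libraries held 65.5, 54.8 and 66.4 CPM in CK and 40.6, 54.8 and 50.9 CPM in CKp25, where CK_6wk_3938 and CKp25_6wk_3940 were nearly equal. It changed by -0.53 ± 0.11 and -0.35 ± 0.11 (adjusted p = 0.00307 and 0.0251), and the 6-week call was lost without CK_6wk_3936, CK_6wk_4009 or CKp25_6wk_3937 (adjusted p = 0.0842, 0.0859 and 0.128).

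Kcnj2, which encodes another strong inward rectifier of the same group as Kcnj4, moved the other way. It was at 14.3, 17.4 and 14.4 CPM in CK and 30.8, 35 and 26.3 CPM in CKp25 at 2 weeks. Its 6-week values were 19.7, 18.6 and 17.5 CPM in CK and 50.6, 39.6 and 34.7 CPM in CKp25. The groups lay well apart, and the gene rose by 1.00 ± 0.15 (adjusted p = 0.000126) and 1.16 ± 0.14 (adjusted p = 1.31e-05). Kcnj10, the channel through which astrocytes take up potassium, read 87.2, 69.3 and 71.7 CPM in CK and 104, 82.3 and 85.3 CPM in CKp25 at 2 weeks, with overlap. At 6 weeks its values were 72.2, 85.6 and 69.7 CPM and 133, 101 and 113 CPM, without overlap. It was 0.25 ± 0.12 at 2 weeks (adjusted p = 0.167) and rose by 0.61 ± 0.12 at 6 weeks (adjusted p = 0.000869). Kcnj16, which forms mixed channels with Kcnj10, was called at neither time (0.19 ± 0.15 and -0.06 ± 0.15). Kcnj8, the pore of the potassium channel that ATP closes in vessel walls, and Kcnj12 and Kcnj14 were not called either, though all 3 CKp25 libraries were above CK for Kcnj8 at 6 weeks.

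Two-pore channels (Kcnk) carry background current and also moved both ways. Kcnk4, a mechanically gated TRAAK channel of neurons, had low counts, with 3.35, 4.71 and 7.32 CPM in CK and 1.89, 2.04 and 2.94 CPM in CKp25 at 2 weeks. At 6 weeks the values were 6.1, 7.69 and 5.59 CPM in CK and 3.6, 3.22 and 2.36 CPM in CKp25. CKp25 stayed below CK, with the widest spread among CK libraries at 2 weeks, and the fold change was -1.14 ± 0.32 and -1.07 ± 0.30 (adjusted p = 0.0172 and 0.0106). These were the lowest fold changes among called members at each time, from few reads. The 2-week call was lost without CK_2wk_4893, CKp25_2wk_4518 or CKp25_2wk_4890 (adjusted p = 0.12, 0.0624 and 0.0551). The 6-week call was lost without CK_6wk_3938 or CKp25_6wk_4008 (adjusted p = 0.051 and 0.0519). Kcnk9, an acid-sensitive TASK channel, measured 17.5, 15.2 and 12.6 CPM in CK and 8.2, 12.1 and 8.55 CPM in CKp25 at 6 weeks. Its 2-week change was -0.38 ± 0.17 (adjusted p = 0.149). It fell at 6 weeks without overlap (-0.63 ± 0.18, adjusted p = 0.0119), and the call was lost without CK_6wk_3936, CKp25_6wk_3937 or CKp25_6wk_4008 (adjusted p = 0.0642, 0.0583 and 0.0526).

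Kcnk6, a TWIK-type channel (ENSMUSG00000046410), rose. It was at 2.68, 1.64 and 4.27 CPM in CK and 11.8, 9.46 and 11.1 CPM in CKp25 at 2 weeks. The 6-week values were 2.44, 2.43 and 2.44 CPM in CK and 15, 9.34 and 10.9 CPM in CKp25. The lowest CKp25 library was above the highest CK library at both times, with 1.91 ± 0.27 (adjusted p = 5.72e-05) and 2.25 ± 0.28 (adjusted p = 1.19e-05), and the calls held under all 22 alternatives. Kcnk13, a THIK-type channel that sets the resting potential of microglia, held 4.53, 2.66 and 5.89 CPM in CK and 5.54, 9.09 and 7.03 CPM in CKp25 at 2 weeks, with overlap. The levels at 6 weeks were 4.07, 7.49 and 5.59 CPM and 13.6, 8.7 and 8 CPM, just without overlap. The changes were 0.71 ± 0.31 (adjusted p = 0.125) and 0.81 ± 0.29 (adjusted p = 0.0402), the latter lost without CKp25_2wk_4894, CK_6wk_3936, CK_6wk_4009 or CKp25_6wk_3937 (adjusted p = 0.0508, 0.16, 0.0911 and 0.219). Kcnk2, a mechanically gated TREK channel, read 14, 13.8 and 10.7 CPM in CK and 17.2, 16.9 and 18 CPM in CKp25 at 6 weeks, without overlap. At 2 weeks the groups overlapped (-0.11 ± 0.14, adjusted p = 0.647). It rose by 0.44 ± 0.14 at 6 weeks (adjusted p = 0.0255), a call lost without CK_6wk_4009, CKp25_6wk_3937 or CKp25_6wk_4008 (adjusted p = 0.131, 0.0577 and 0.0756).

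Kcnk1, a TWIK-type channel of neurons and astrocytes, changed side between times. It was at 59.7, 64.6 and 64.6 CPM in CK and 50.4, 54.5 and 55.4 CPM in CKp25 at 2 weeks, and all CKp25 libraries were below CK. By 6 weeks the libraries held 65.5, 56.9 and 64.4 CPM and 72.2, 68.4 and 70.2 CPM, and all CKp25 libraries were above CK. It fell at 2 weeks (-0.24 ± 0.08, adjusted p = 0.0434) and was 0.17 ± 0.08 at 6 weeks (adjusted p = 0.0999). The difference of these effects was 0.41 ± 0.11 and did not pass the adjusted threshold (adjusted p = 0.0936). The 2-week call was lost without CK_2wk_4891, CK_2wk_4893 or any 1 CKp25 library of that time, and without CKp25_6wk_3940 or CKp25_6wk_4008 (adjusted p from 0.0534 to 0.147). Kcnk3, Kcnk10 and Kcnk12 were called at neither time, with -0.43 ± 0.18 for Kcnk10 at 6 weeks (adjusted p = 0.0815, and 0.0485 without CK_2wk_4891). Kcnk12 was called lower at 6 weeks with the share of reads aligned to several places as a covariate (-0.93, adjusted p = 0.0478).

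**Figure D3:**
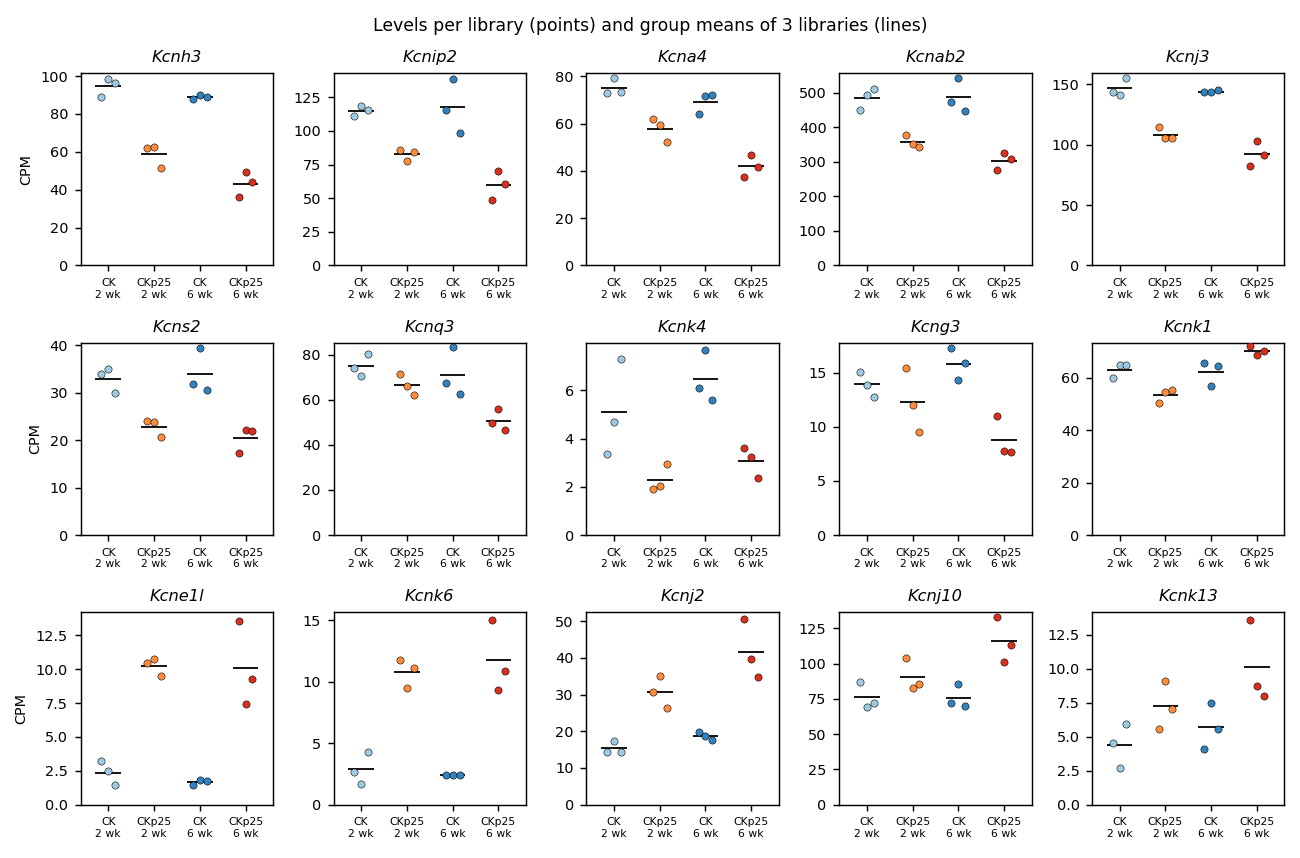
CPM in each of the 12 libraries (points) with the mean of each group of 3 (lines) for 15 potassium channel genes, at 2 weeks (CK light blue, CKp25 orange) and 6 weeks (CK dark blue, CKp25 red); each vertical axis starts at 0 and has its own scale. Kcnh3 stands at 88.1 to 98.4 CPM in the CK libraries and 36.2 to 62.5 CPM in the CKp25 libraries, whereas Kcnk6 stands at 1.64 to 4.27 and 9.34 to 15.0 CPM.

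The remaining auxiliary subunits are cytoplasmic partners of Kv1 channels (Kcnab), single-span partners of several Kv channels (Kcne) and partners of BK channels (Kcnmb). Kcnab2, a cytoplasmic Kv1 beta subunit, was at 450.3, 494 and 509 CPM in CK and 378, 350.5 and 344 CPM in CKp25 at 2 weeks. Values at 6 weeks were 474, 543 and 448 CPM and 277, 324 and 307 CPM. It fell without overlap, with -0.44 ± 0.09 (adjusted p = 0.0018) and -0.69 ± 0.09 (adjusted p = 1.72e-05). Its span overlaps that of Nphp4. Kcnab1 fell at both times too (-0.39 ± 0.10 and -0.56 ± 0.10, adjusted p = 0.00846 and 0.000375), the first call lost without CK_2wk_4891 or CKp25_2wk_4894 (adjusted p = 0.0526 and 0.066). Kcnab3 was called at neither time.

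Kcne1l, an X-linked single-span subunit now also named Kcne5 (ENSMUSG00000090122), had the highest fold change of all tested members. It stood at 3.19, 2.45 and 1.42 CPM in CK and 10.5, 10.8 and 9.48 CPM in CKp25 at 2 weeks. The 6-week values were 1.42, 1.82 and 1.75 CPM in CK and 13.6, 7.41 and 9.27 CPM in CKp25. The groups were far apart at both times, with 2.09 ± 0.28 (adjusted p = 3.29e-05) and 2.57 ± 0.30 (adjusted p = 7.11e-06), and the calls held under all 22 alternatives. Kcne1l passed the filter on low counts mainly through the CKp25 libraries, since 2 of 6 CK libraries reached its minimum. Kcna5, Kcne2 and Kcnj14 also had fewer than 3 CK libraries at that minimum and were not called. Kcnmb2 was called at neither time (0.51 ± 0.24 at 6 weeks, adjusted p = 0.122).

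Within CKp25, 8 potassium channel genes fell and 2 rose from 2 to 6 weeks, where 5.53% of all genes fell and 6.12% rose (11.7% called). Among those that fell were Kcna4 (-0.46 ± 0.10, adjusted p = 0.00493), Kcnip2 (-0.45 ± 0.12), Kcnh3 (-0.44 ± 0.10), Kcnmb4 (-0.40 ± 0.11), Kcnq3 (-0.39 ± 0.11), Kcnd2 (-0.32 ± 0.09) and Kcnma1 (-0.22 ± 0.07, adjusted p = 0.0405). Kcnj2 and Kcnk1 rose (0.44 ± 0.13 and 0.40 ± 0.08, adjusted p = 0.0429 and 0.00343). The count that fell was 1 (1.37% of members, against 2.78% of all genes) without CKp25_6wk_3937. It was 3 without CKp25_2wk_4518 (4.84% of all genes) or CKp25_6wk_4008 (3.58%), and 4 without CKp25_2wk_4890 (4.33%). The share of members, 4.11% for 3 and 5.48% for 4, was then near or below the background. The count that rose was 1 without CK_2wk_4893, CKp25_2wk_4894, CK_6wk_3936 or CKp25_6wk_3937. Only Kcna4 and Kcnk1 kept this call under all 20 alternatives run for this contrast.

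Among the CK libraries no member changed between times in edgeR's quasi-likelihood test, where 0% of all genes were called. At an unadjusted p below 0.05 there were 4 members and 560 of all genes, and DESeq2 and limma-voom called no member either. The genotype effect itself was not called as different between the times for any member in edgeR's test (0.553% of all genes called, 0.374% higher and 0.18% lower). At an unadjusted p below 0.05 there were 13 of 73 members and 2077 of all 14457 genes. Of these members, Kcnk1, Kcnk2 and Kcnc4 had a positive difference and the rest a negative one. Among the rest were Kcna4, Kcnd3, Kcng3, Kcnh3, Kcnip2, Kcnma1, Kcnmb4, Kcnn3 and Kcnq3. DESeq2 called 1 member lower (0.678% of all genes) and limma-voom called none. The genes called lower at 6 weeks alone are therefore not shown to have changed more at 6 than at 2 weeks.

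Some partners of these channels that are not Kcn genes fell as well. Of 22 tested partner genes (Kv4 and Kv2 auxiliary proteins, axonal adhesion and scaffold proteins, calmodulins, HCN channels and others), 11 fell and none rose at 2 weeks (7.99% of all genes fell), and 14 fell and 2 rose at 6 weeks (15.2 and 18.1%). The median was -0.25 at 2 weeks and -0.31 at 6 weeks. Dpp6, which traffics Kv4 channels, was -0.25 ± 0.09 at 2 weeks (adjusted p = 0.0775) and -0.49 ± 0.10 at 6 weeks (adjusted p = 0.000839). Dlg4, the scaffold that clusters Kv1 and Kcnj channels, fell at both times (-0.31 ± 0.08 and -0.50 ± 0.08, adjusted p = 0.0101 and 0.00015). Calm2 and Calm3, whose calmodulin binds SK and Kv7 channels, fell at both times, with -0.56 ± 0.09 and -0.50 ± 0.09 at 6 weeks (adjusted p = 0.000129 and 0.000539). Hcn2, a subunit of the hyperpolarisation-activated channel, and Cntn2, an axonal adhesion protein, rose at 6 weeks (0.31 ± 0.08 and 0.29 ± 0.10, adjusted p = 0.00631 and 0.0393).

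Pumps and cotransporters that move potassium split by gene. Of 11, 3 rose and 4 fell at 2 weeks (11.6 and 7.99% of all genes), and 6 rose and 5 fell at 6 weeks (18.1 and 15.2%). Slc12a5, the neuronal potassium-chloride cotransporter, fell at both times (-0.35 ± 0.08 and -0.49 ± 0.08, adjusted p = 0.00523 and 0.000172). Atp1b2, a pump subunit of astrocytes, rose at both times (0.43 ± 0.10 and 0.65 ± 0.10, adjusted p = 0.00421 and 6.52e-05). Slc12a7, another potassium-chloride cotransporter, rose at both times (1.03 ± 0.28 and 1.22 ± 0.28, adjusted p = 0.0155 and 0.00278).

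Marker genes of whole cell types moved in the same libraries. All 12 pan-neuronal markers had negative fold changes, 9 were called lower at 2 weeks and 12 at 6 weeks, with medians of -0.40 and -0.47 and lowest values of -0.58 and -0.60. Their summed level was 6680 to 6977 CPM in CK and 5256 to 5603 CPM in CKp25 at 2 weeks, and 6522 to 7058 and 4361 to 5422 CPM at 6 weeks. Of 8 excitatory neuron markers 4 fell at 2 weeks and 7 at 6 weeks (medians -0.34 and -0.79). Of 8 inhibitory neuron markers none fell at either time in edgeR's test, and 1 rose at 6 weeks (medians -0.12 and 0.16). None of these 8 had an unadjusted p below 0.05 at 2 weeks and 2 did at 6 weeks. Of the members that fell, 3 of 27 at 2 weeks and 13 of 31 at 6 weeks had fold changes below the lowest of the pan-neuronal markers. Against the lowest of the excitatory markers these counts were 2 and 2, Kcnh3 and Kcnk4 at each time. The part of neuron number in the falls of channel genes was not tested.

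All 8 microglial markers rose at both times (medians 1.98 and 2.15), with a summed level of 232 to 251 CPM in CK and 834 to 1081 CPM in CKp25 at 2 weeks, and 216 to 244 and 974 to 1289 CPM at 6 weeks. Of 8 astrocyte markers 5 rose at 2 weeks and 8 at 6 weeks (medians 0.49 and 0.82), with sums of 5157 to 5607 against 7125 to 7505 CPM and 5309 to 5874 against 9660 to 12120 CPM. No endothelial marker of 8 was called at 2 weeks in edgeR's test (1 at an unadjusted p below 0.05) and 8 rose at 6 weeks. Oligodendrocyte markers went from 0 called of 8 at 2 weeks (0 at an unadjusted p below 0.05) to 7 higher at 6 weeks. The part of these cells in the rise of Kcne1l, Kcnk6, Kcnj2, Kcnk13, Kcnk2 and Kcnj10 was not tested. Pericyte and smooth muscle markers went from 0 called of 7 (0 at an unadjusted p below 0.05) to 6 higher, and all 5 tested markers of dividing cells rose at both times (medians 5.61 and 2.86). Markers of hippocampus were present in all libraries, summing to 952 to 1557 CPM, and moved with the channel genes: 4 of 8 fell at 2 weeks and 6 at 6 weeks (medians -0.39 and -0.76). Within CKp25, 5 of these 8 fell from 2 to 6 weeks (median -0.61). Prox1, Neurod6 and Wfs1 are in both this list and that of excitatory neurons. Markers of other brain regions summed to 97.1 to 108.3 CPM in CK and 78.9 to 89.8 CPM in CKp25 at 2 weeks. At 6 weeks they summed to 91.4 to 105.8 and 114.6 to 124.8 CPM. Of 4 tested, 1 fell at 2 weeks and 1 rose at 6 weeks.

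**Figure D4:**
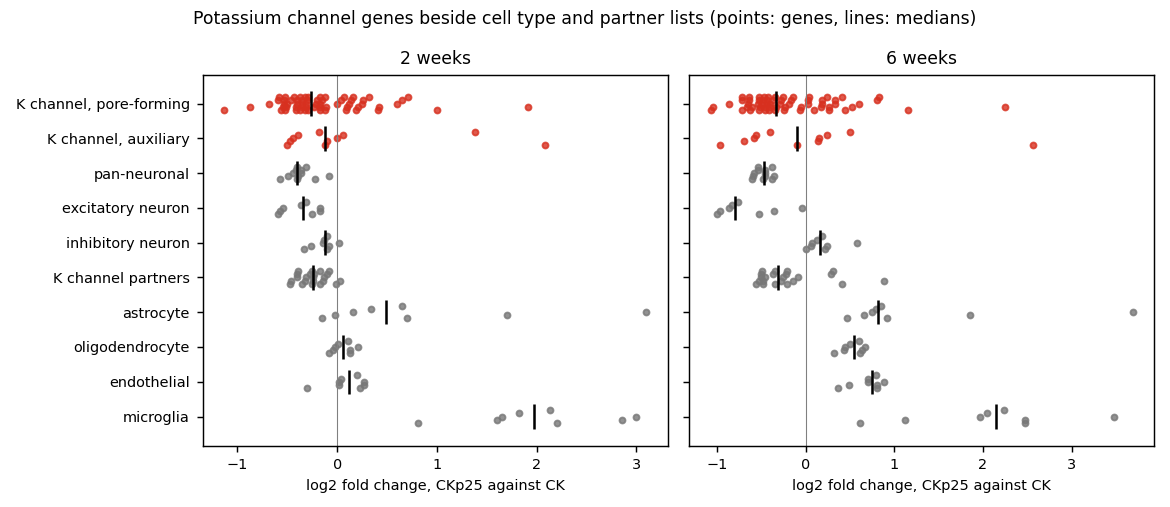
Log2 fold change of CKp25 against CK (horizontal axis) for each tested gene (points) of the potassium channel genes (red) and of marker and partner lists (grey), with the median of each list as a vertical line, at 2 weeks (left) and 6 weeks (right). The median of the channel-forming genes (-0.26 and -0.34) lies between that of the pan-neuronal markers (-0.40 and -0.47) and 0, and the microglial markers lie to the right at both times.

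Kcnj13 and Kcne2, which the choroid plexus expresses, varied with genes of that tissue and were called at neither time. Kcnj13 was at 12.6, 1.02 and 0 CPM in CK and 13.6, 1.3 and 3.92 CPM in CKp25 at 2 weeks, and at 7.12, 0.607 and 31.6 and 17.4, 1.13 and 33.3 CPM at 6 weeks. High and low libraries occurred in every group, and the summed level of 10 choroid plexus genes ranged from 153 to 3954 CPM over the 12 libraries. With the mean log2 level of those genes as a covariate, the SE of the 6-week change of Kcnj13 went from 0.94 to 0.21 and that of Kcne2 from 0.87 to 0.36. Neither gene was called with or without it (Kcnj13 0.33 ± 0.94 without and 0.14 ± 0.21 with the covariate).

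**Figure D5:**
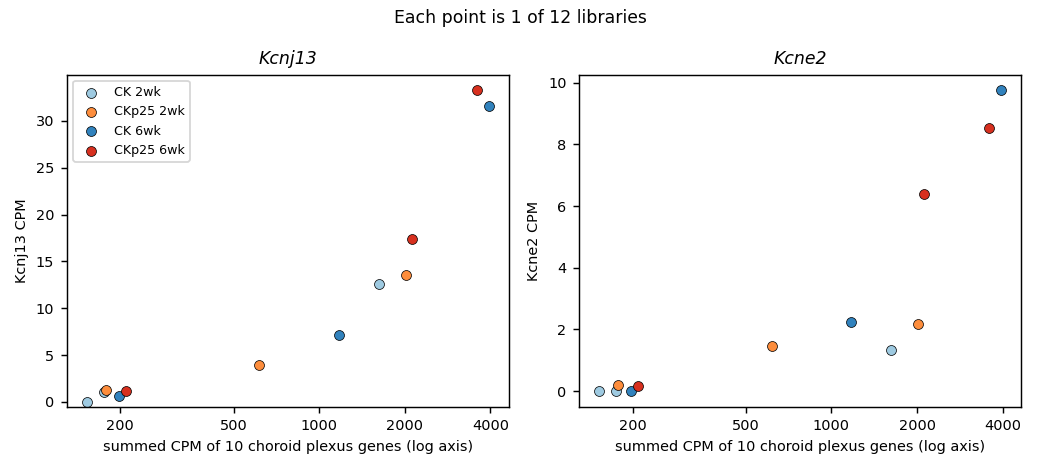
CPM of Kcnj13 (left) and Kcne2 (right) against the summed CPM of 10 choroid plexus genes (log axis), 1 point per library, coloured by group. In each group the lowest library lies between 153 and 209.7 CPM on the horizontal axis and the highest between 1619 and 3954 CPM.

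The 19 members not tested held 0 to 55 counts over the 12 libraries together. They were Kcna7 and Kcna10 of Kv1, Kcnv2, Kcnq1, Kcnh8, Kcnn4, Kcnj1, Kcnj5 and Kcnj15, Kcnk5, Kcnk7, Kcnk15, Kcnk16 and Kcnk18, and the auxiliary Kcne1, Kcne3, Kcne4, Kcnmb1 and Kcnmb3. Kcne1, Kcnk16 and Kcnk18 had 0 counts. Kcnk5, the alkaline-sensitive TASK channel, had 7 counts in CK and 21 in CKp25 at 2 weeks and 5 and 22 at 6 weeks, over 3 libraries each. Without the filter on low counts it was called higher at 6 weeks (1.95, adjusted p = 0.0289). The annotated spans of 41 of the 92 members overlap another gene in RefSeq GRCm38, 19 of them among the 37 members called at 6 weeks, and it is not known here whether counting used strand.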

How the data were processed

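Total RNA of flash-frozen mouse hippocampus was made into libraries with a stranded kit after ribosomal RNA removal, per the labels' protocols. The authors deposited raw read counts per Ensembl gene for 12 libraries, 3 in each of 4 groups. Bowtie, Picard, HTSeq 0.6.1 and MACS2, with builds NCBIM37 and mm9, are named in the submitters' processing notes. The table's closing entries list reads aligned to several places apart from the gene counts, so near-identical genes are undercounted. The 5 closing entries that name no gene held 38.1 to 46.9% (no feature), 6.13 to 11.1% (not aligned) and 6.81 to 14.3% (several alignments) as their larger shares, and were kept out of library sizes. Histone peak lists were not used here.

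Counts were fitted in R 4.3.3 with edgeR 4.0.16: filterByExpr, TMM factors, 4 group means over all 12 libraries, and quasi-likelihood tests with Benjamini-Hochberg adjustment over 14457 genes. All groups share 1 estimate of the spread. No library number recurs in another group. A fit with the 4 runs of library numbers as a block was added after seeing the data. Alternatives used DESeq2 1.42.0, limma-voom (limma 3.58.1), other factors, filters, covariates, single times and left-out libraries. Symbols were found for 32919 of 37991 genes. The members, lists and tests were chosen with earlier results of these data known. Values in every library are given for the 8 called members lowest and the 8 highest in fold change at each time and for called members whose family neighbours moved the other way, and beside them for Kcnd2, Kcnq3 and the choroid plexus gene Kcnj13, chosen after their values were seen. No set test was run. The planned comparison of protein stretches was not made. A few genes are not reported here by name.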

Additional observations from a re-analysis of the deposited data

How the results depend on the processing

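No called member changed sign under any alternative. Of members called, 16 of 30 at 2 weeks and 27 of 37 at 6 weeks kept the call under all 22 alternatives, and 2 of 10 did under 20 alternatives for 6 against 2 weeks within CKp25. With 1 library left out, 15 to 28 members fell (3.26 to 8.86% of all genes) and 3 rose (9.1 to 12.2%) at 2 weeks. At 6 weeks 24 to 32 fell (10.2 to 16.3% of all genes) and 4 to 6 rose (13.7 to 18.2%). Within CKp25 over time 1 to 12 fell (2.78 to 7.26%) and 1 to 3 rose (2.93 to 6.58%). No member was called for the difference between times or within CK when 1 library was left out (0 in each case). For the difference between times, DESeq2 gave 1 lower (0.678% of all genes) and no filter 2 lower (1.16%), Kcnip2 among them. With the share of reads aligned to several places as a covariate, 1 was higher (Kcnj10), as were 1.4% of all genes. Within CKp25 over time, 1 rose by DESeq2 (4.59% of all genes) and 5 without the filter (5.35%). Without both CK_2wk_4520 and CKp25_2wk_4518, 3 fell, 4.11% of members against 4.96% of all genes. Within CK, 2 rose without the filter (Kcne2 and Kcnj13), as did 0.286% of all genes. The cause of these moves was not tested. With the 4 runs of library numbers as a replicate block, an alternative chosen after seeing the data, 28 members fell and 3 rose at 2 weeks (9.81 and 12.6% of all genes) and 31 fell and 7 rose at 6 weeks (16.3 and 19.4%). The 27, 3, 31 and 6 called without the block were all among them, Kcnh5 (2 weeks) and Kcna6 (6 weeks) were added, and no member was called for the difference between times. A run holds libraries of 1 time, so 6 against 2 weeks could not be fitted with this block. The calls of Kcnk4 and Kcnk13, which have few reads, depend on single libraries, as do those of Kcna1, Kcnd2 and Kcnma1 at 2 weeks, which have more. The 2-week calls lost most often were those of Kcnk1, Kcnq5 and Kcnf1, in 13, 12 and 11 of 22 alternatives.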
